A study of Mus musculus with 40 samples.

Results

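The genes described here carry the mouse symbol Zfp followed by a number, which is given to genes whose proteins hold zinc fingers. Zfp42, the ES cell gene also called Rex1, was left out and used as a marker. The members were found through the accession numbers printed for the probes, through probes of the same sequence on another design, and through the gene names in the tables of the study. They came to 174 genes of 14125 genes with a symbol. The design used for the first day of treatment carried 169 members on 192 probes, the design for days 0 to 5 carried 125 on 132, and the design for Nanog lines and culture media carried 168 on 192. All 3 designs carried 123 members, and Zfp459 was not on the design for days 0 to 5.

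The arrays measured RNA of mouse embryonic stem (ES) cells against a common reference RNA pooled from mouse cell lines. ZHBTc4 cells, in which both Pou5f1 alleles are disrupted and a Pou5f1 transgene is shut off by tetracycline (Tet), were harvested before Tet and after 3, 6, 12 or 24 hr in it (early arrays, 2 per time) and, in a second experiment, before Tet and daily from 24 up to 120 hr (late arrays, 3 per time). Each ZHBTc4 set comes from 1 line, so its replicates are samples of 1 clone. In the third set, a line with an episomal Nanog transgene and its parental line MG1.19, a line with an integrated Nanog transgene, and the line labelled ES 129.3 were each cultured for 3 days with LIF (LIF+), without LIF (LIF-) and with LIF and 1 µM retinoic acid (LIF+ RA), 1 array per line and medium. ES 129.3 was taken as the parental line of the integrated clone, which the labels do not state. The Nanog lines carry the transgene in all media, the parental lines in none, and all cells had been passaged on gelatin to remove feeder cells. A value below is log2 of the sample's signal (Cy3) over the reference signal (Cy5), a change is a difference of such values, and a gene was called when limma gave an adjusted p under 0.05 and the change was at least 1.5-fold. Genes called up are said to rise and genes called down to fall. Shares of all genes include the features without a symbol, which are most of the early features, so shares of the genes with a symbol are given as well. The probes measured bulk RNA, in which fewer cells of a type and less RNA per cell cannot be told apart.

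A C2H2 zinc finger is a short loop of protein held around a zinc ion by 2 cysteines and 2 histidines, and long rows of fingers, joined by a short conserved linker, read DNA sequence. Many mouse Zfp proteins begin with a KRAB domain, which recruits the corepressor Trim28 (KAP1) and through it histone and DNA methylation, mostly at transposable elements. In ES cells Zfp57 keeps the methylation of imprinting control regions through this route. The symbol is a naming rule and not a function: it also covers Zfp185, a protein of the actin cytoskeleton, Zfp703, a nuclear corepressor, and Zfp473, a factor in the processing of histone transcripts.

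The 60-base probes of several members lie in the finger-coding sequence itself, and they are shown because this repeat is where members resemble each other. Capitals mark the linker codons in Zfp74, Zfp983 and Zfp947, and the stretch with the cysteine pair of a finger in Zfp57.
Zfp74: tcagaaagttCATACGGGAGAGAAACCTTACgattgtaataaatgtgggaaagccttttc
Zfp983: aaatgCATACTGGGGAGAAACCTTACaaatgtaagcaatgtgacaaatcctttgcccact
Zfp947: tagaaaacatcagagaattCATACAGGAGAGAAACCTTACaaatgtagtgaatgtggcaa
Zfp57: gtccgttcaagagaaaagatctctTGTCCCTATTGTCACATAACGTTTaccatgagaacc
The probes of Zfp74 and Zfp57 were the same on all 3 designs. The linker was found in 9 of 192 member probes of the early design (4.69%), against 21 of 42006 probes of all genes (0.05%). The cysteine pair in an open frame was found in 16 member probes (8.33%), against 0.321% of all probes. The Zfp947 probe shares a run of 26 bases with a probe of another gene, and the probes of Zfp53, Zfp97, Zfp105, Zfp125, Zfp825, Zfp866, Zfp932 and Zfp935 share runs of 21 to 42 bases on the early design, so the values of these 9 members may contain signal from relatives.

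The sequence just upstream of the start is shown for Zfp296, the member that fell first and deepest, and Zfp459, the member with the steepest fall after 12 hr. They are the 250 bases before the RefSeq start (GRCm38.p6), read 5′ to 3′ on the gene's strand, and capitals mark motifs found by letter match on either strand.
Zfp296, chr7:19577037-19577286, plus strand: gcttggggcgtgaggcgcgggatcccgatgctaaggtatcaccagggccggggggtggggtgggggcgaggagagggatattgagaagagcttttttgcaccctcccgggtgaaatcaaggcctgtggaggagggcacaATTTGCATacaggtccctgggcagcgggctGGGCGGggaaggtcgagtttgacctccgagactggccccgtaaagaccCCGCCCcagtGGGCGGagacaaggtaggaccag
Zfp459, chr13:67421419-67421668, minus strand: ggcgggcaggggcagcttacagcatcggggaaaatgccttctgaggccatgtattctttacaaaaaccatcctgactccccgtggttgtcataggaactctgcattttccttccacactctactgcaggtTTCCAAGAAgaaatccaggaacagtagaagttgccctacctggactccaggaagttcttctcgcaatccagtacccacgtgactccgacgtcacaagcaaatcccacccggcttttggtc
The capitals in Zfp296 are an octamer (ATGCAAAT, at -111 to -104), the sequence bound by POU domain factors, and 3 GC boxes (GGGCGG). The capitals in Zfp459 are a STAT site (TTCNNNGAA, at -120 to -112). RefSeq promoters were matched for 142 of the 174 members. In windows of 250 bases before to 50 after the start, the octamer was present in 5 of these 142 (3.52%: Zfp120, Zfp207, Zfp263, Zfp296 and Zfp428), against 1.61% of 27025 promoters of all genes. The STAT site was present in 26 member promoters (18.3%) against 7.18% of all promoters, the GC box in 43.7% against 32.9%, and CCAAT in 47.2% against 34.5%. Among 25 promoters of members called down under Tet, 1 held the octamer (4%, Zfp296) and 3 the STAT site (12%). Among 13 of members called up, 0 held the octamer and 1 the STAT site (7.69%). A letter match is a description of the sequence and not of binding.

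The labels could be checked on marker genes. On the early arrays 1 Pou5f1 probe read 2.92 and 1.52 at 0 hr and -0.53 and -0.61 at 24 hr, so the 2 arrays at 0 hr were unequal, while a brighter probe read 3.97 on both and changed by -0.55 at 24 hr. On the late arrays Pou5f1 changed by -2.07 at 120 hr, 6 of 8 ES cell markers fell and 7 of 9 trophoblast markers rose. Of the LIF response genes Socs3 changed by -2.62 in LIF-, and all 4 RA response genes rose on RA, where 4 of 6 primitive endoderm markers, 7 of 10 trophoblast markers and 3 of 6 fibroblast markers also rose. The part of other cell types in the changes below was not tested. The signal of the reference channel (Cy5) moved between early arrays: the mean log10 Cy5 of its 100 most variable bright probes was 3.28 and 3.34 at 0 hr and 2.93 and 2.75 at 24 hr.

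The 3 members chosen as examples all read lower after Tet, each in its own time (the plot of these members by array). Zfp74 read 2.94 and 3.14 at 0 hr of the early arrays, 2.70 and 2.78 at 3 hr, 2.56 and 2.70 at 6 hr, 2.34 and 2.05 at 12 hr and then 1.57 and 1.67 by 24 hr. Its mean was lower at each later time, and no later array reached those at 0 hr. The change of -1.42 at 24 hr (SE 0.12, adjusted p 0.000177, limma) was a 2.68-fold fall, and it was called from 12 hr on (-0.85). On the late arrays Zfp74 read 2.45, 2.32 and 3.11 at 0 hr, 1.98, 1.75 and 1.38 at 24 hr and then 0.87, 1.31 and 1.189 at 120 hr. The third array at 0 hr stood above the other two, and all later arrays lay below the 3 at 0 hr. The change was -0.93 at 24 hr (SE 0.19) and -1.50 at 120 hr (SE 0.19, adjusted p 3.45e-06, limma), and the interpolated course passed 1.5-fold at 15.2 hr. The 24 hr changes of the 2 sets differed by -0.50 (SE 0.27, adjusted p 0.17, limma), which did not pass.

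Zfp459, a member of a rodent family of KRAB genes, held its level until 12 hr and then dropped. It read 2.43 and 2.33 at 0 hr, 2.3 and 2.60 at 6 hr, 2.43 and 2.12 at 12 hr and then 0.72 and 0.39 at 24 hr. The arrays up to 12 hr lay between 2.12 and 2.60, and both 24 hr arrays lay far below them. The change was -0.10 at 12 hr and -1.83 at 24 hr (SE 0.15, adjusted p 0.000157, limma), a 3.54-fold fall, and it lay between -1.99 and -1.66 when each early array was left out in turn.

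Zfp57, the keeper of imprints, had smaller changes. On the early arrays it read 0.63 and 0.49 at 0 hr, 0.32 and 0.33 at 3 hr, 0.33 and 0.41 at 6 hr, 0.39 and 0.34 at 12 hr and then 0.11 and 0.00 by 24 hr, a change of -0.51 (SE 0.09, adjusted p 0.00658, limma) that stayed under 1.5-fold. On the late arrays it read 0.61, 0.40 and 0.87 at 0 hr, 0.05, 0.13 and 0.05 at 24 hr, -0.21, -0.39 and -0.22 at 48 hr and then -0.35, -0.37 and -0.37 at 120 hr. No later array reached the lowest array at 0 hr, and the level hardly moved after 48 hr. The change was -0.55 at 24 hr, which differed from the early change by 0.04 (adjusted p 0.85, limma), and -0.99 at 120 hr (SE 0.10, adjusted p 1.88e-07, limma), and it was first called at 48 hr. The probe was dim on the late arrays, above the 95th percentile of the negative control spots on 5 of 18, and without background correction its change at 120 hr was -0.23 and was not called.

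**Figure D1:**
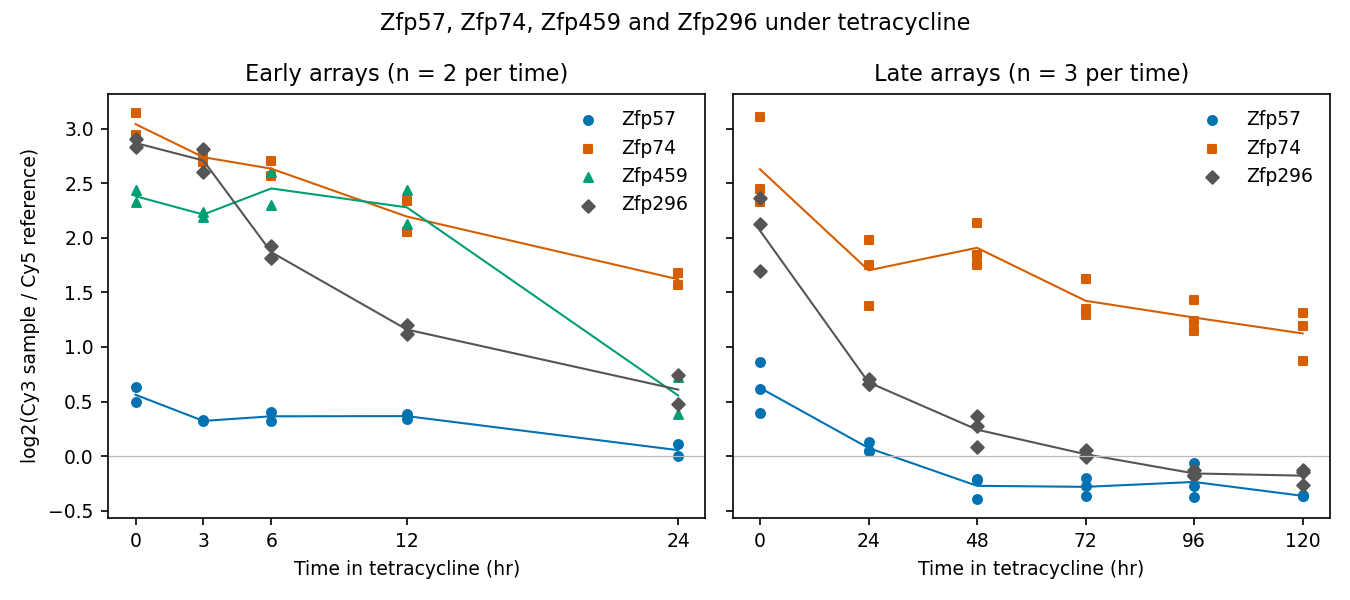
log2(Cy3 sample / Cy5 reference) of Zfp57, Zfp74, Zfp459 and Zfp296 against hours in tetracycline on the early arrays (left, n = 2 per time) and the late arrays (right, n = 3 per time); points are arrays and lines join the means. Zfp296 parted from 0 hr at 6 hr, Zfp74 fell step by step, Zfp459 (not on the late design) fell between 12 and 24 hr, and Zfp57 moved from 0.56 to 0.06 on the early arrays.

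Over the first day, few members responded before 24 hr. At 3 hr no member and 0% of all 38998 genes tested were called by limma, with 17 of the 169 members, 6.19% of all genes and 7.81% of genes with a symbol at an unadjusted p under 0.05. At 6 hr 3 members rose and 1 fell, with 2.17% of all genes called (2.07% up and 0.0974% down) and 2.95% of those with a symbol. At 12 hr 1 rose and 4 fell, against 0.597% of all genes (0.215% up and 0.382% down) and 1.28% of those with a symbol, and these 5 were Zfp202 (up), Zfp74, Zfp292, Zfp296 and Zfp983. At 24 hr 12 rose and 14 fell among 169 members, 15.4% against 8.83% of all genes and 13.4% of the 13916 genes with a symbol, and the other 143 did not pass. The falls were 8.28% of members, 1.92% of all genes and 4.17% of genes with a symbol. The rises were 7.1% of members, 6.91% of all genes and 9.18% of genes with a symbol. None of the 26 was called with the error variance of the study's methods, and 11 members were called without background correction. The former setting borrowed only the error variance and tested each early time apart, whereas the study joined both time courses. It therefore does not show what the study's own procedure would call. The median change of the members at 24 hr, -0.06, was that of all genes. The early counts leaned on the arrays at 0 hr: without the first of them 5 rose and 11 fell at 24 hr, without the second 3 rose and 10 fell, and without either of them, or without the second array at 6 hr, none was called at 6 hr. Groups without overlap were common at this size, with 63.3% of all genes not overlapping between 0 and 24 hr.

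Zfp296, a zinc finger gene of pluripotent and germ cells, was the earliest and largest fall. It read 2.83 and 2.91 at 0 hr, 2.60 and 2.81 at 3 hr, 1.82 and 1.92 at 6 hr, 1.2 and 1.12 at 12 hr and then 0.74 and 0.48 at 24 hr. Each time from 6 hr on lay below the one before. The change was -1.0 at 6 hr (adjusted p 0.0238, limma) and -2.26 at 24 hr (SE 0.11, adjusted p 1.50e-05, limma), a 4.79-fold fall.

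Zfp532 followed the course of Zfp459, with 1.44 and 1.48 at 0 hr, 1.41 and 1.29 at 12 hr and then 0.05 and -0.04 at 24 hr, a change of -1.46 (SE 0.09). Zfp819, another gene of a rodent KRAB family, read 2.60 and 2.44 at 0 hr, 2.94 and 2.89 at 6 hr, 2.01 and 2.03 at 12 hr and then 1.04 and 1.11 at 24 hr. Both fell mostly after 12 hr, and Zfp819 was slightly above its 0 hr arrays at 6 hr. Zfp983 declined from 2.57 and 2.52 to 1.83 and 1.61 at 12 hr and 1.30 and 1.25 at 24 hr, in the stepwise manner of Zfp74. Of the 27 members called at any early time, 4 were first called at 6 hr, another 4 by 12 hr and the other 19 by 24 hr.

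The rises of the first day were less uniform than the falls when the sample and reference channels were read apart (the plot by channel). The Cy3 signal of the sample moved in the called direction for all 14 falls and for 7 of the 12 rises. The Cy5 signal of the reference, which is the same RNA on every array, went down for 11 of the 12 rises. Its median change there was -0.56 on the log2 scale. For the falls Cy5 went up in 10 of 14, with a median of 0.14, where the median of Cy3 was -0.99. The channels were not counted over all called genes, so whether these shares are particular to the members was not tested. Zfp281, a factor that binds the Nanog promoter, read 1.72 and 1.69 at 0 hr, 2.80 and 2.88 at 6 hr and then 2.24 and 2.87 at 24 hr as a ratio, a change of 0.85 at 24 hr. Its Cy3 changed by -0.27 and its Cy5 by -1.12, and at 6 hr by 0.06 and -1.08. The ratio of Zfp64 rose by 0.86 with Cy3 at -0.26 and Cy5 at -1.13, and that of Zfp710 by 1.25 with Cy3 at -0.014 and Cy5 at -1.27.

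With the correction for Cy5 bleaching that the study's methods describe, 3 of the 12 rises (Zfp202, Zfp703 and Zfp768) and 11 of the 14 falls were still called. The corrected changes were -0.50 for Zfp281, -0.36 for Zfp64, -0.095 for Zfp715 and 0.01 for Zfp710, none of them called. Zfp800 changed by 0.99 before and 0.56 after the correction. A second probe of Zfp710, the one shared with the late design, changed by -0.04.

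The rise of Zfp768 was the largest of those kept. It read -1.16 and -1.78 at 0 hr, -0.64 and -1.16 at 12 hr and then -0.25 and 0.39 at 24 hr. The first array at 0 hr did not differ from the second array at 12 hr. The change was 1.54 (SE 0.26, adjusted p 0.00512, limma), and 1.36 after the correction. Zfp703 rose by 0.72 and Zfp202, which carries SCAN and KRAB domains, by 0.66.

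**Figure D2:**
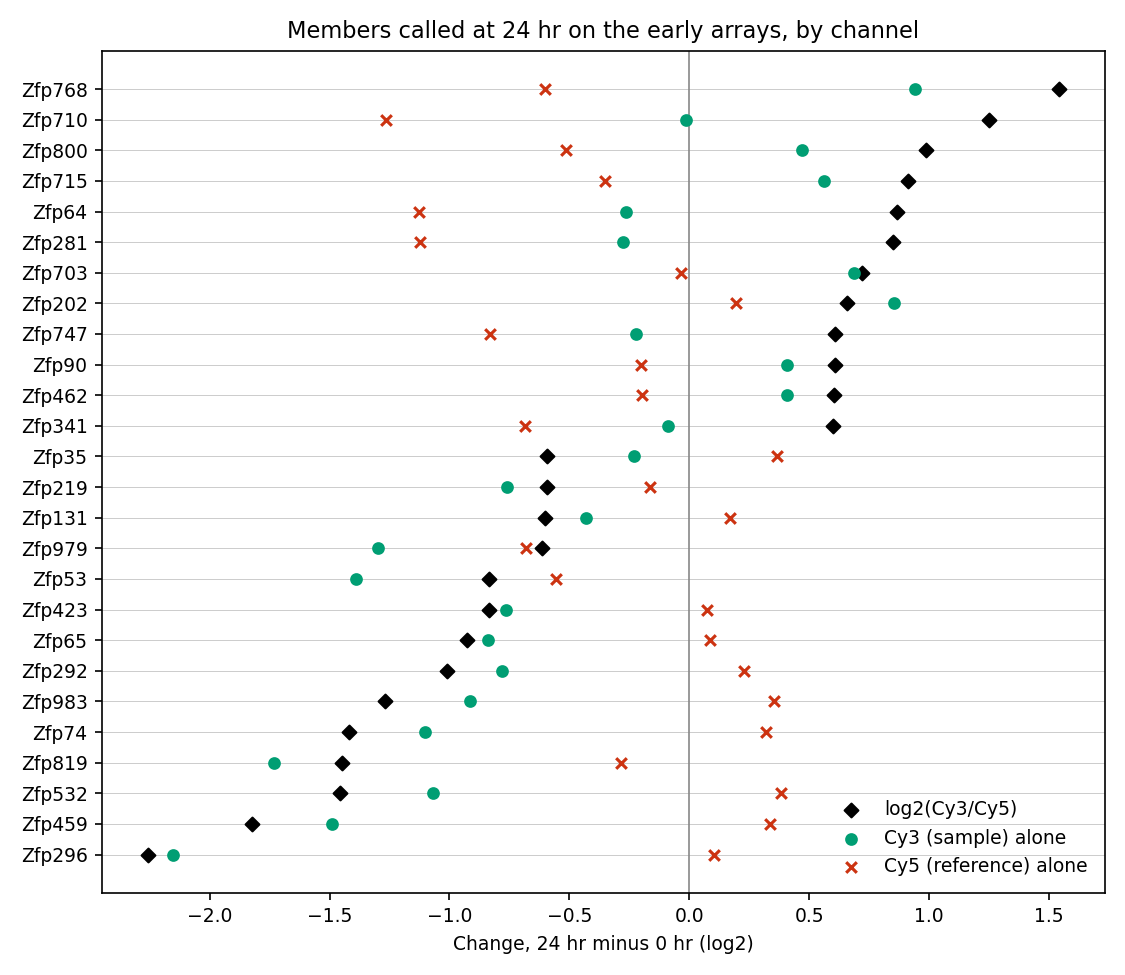
Change from 0 to 24 hr (log2) on the early arrays for the 26 called members: black diamonds show the ratio, green circles the Cy3 sample channel and red crosses the Cy5 reference channel. For the falls at the bottom the green points lie left of 0, while for Zfp710, Zfp64 and Zfp281 the green points lie at or below 0 and the red crosses beyond -1.

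On the late arrays 35 of the 125 members responded at some time by limma's F test, 28.0% against 24.5% of all genes and 34.7% of the 11381 with a symbol, with 25 falling and 10 rising and none called in both directions (the heat map by time). The number called grew with time. At 24 hr 3 rose and 9 fell (7.57% of all genes called, 3.95% up and 3.62% down). At 48 hr 3 rose and 15 fell (10.3% of all genes, 5.45% up and 4.8% down). At 72 hr the numbers were 6 and 20 (14.3%, with 7.95% up and 6.39% down), and at 96 hr they were 5 and 22 (17.8%, with 10.6% up and 7.26% down). Of genes with a symbol 11%, 15%, 20.8% and 25.4% were called from 24 to 96 hr. At 120 hr 9 rose and 23 fell, 25.6% of members, where 20.6% of all genes and 29.3% of genes with a symbol were called. The falls were 18.4% of members, 8.53% of all genes and 12.5% of genes with a symbol. The rises were 7.2% of members, 12.1% of all genes and 16.8% of genes with a symbol. Without background correction 2 rose and 13 fell, with 17 members called at any time, and the deposited table gave 12 rises and 16 falls. The median change of the members was -0.09, against 0.00 over all genes. The later times share the 3 arrays at 0 hr, and 51.3% of all genes did not overlap between 0 and 120 hr.

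Falling members tended to be called earlier than rising ones. The study describes a like order over all its responding genes, with mostly down-regulation at first and a wave of up-regulation later. First-call times and calls at all times were not counted over all genes here. Whether the order below is particular to the members was therefore not tested. Of the falls 9 were first called at 24 hr and 6 at 48 hr, followed by 5, 3 and 2 on the next days. Of the rises 3 were first called at 24 hr, none at 48 hr, 5 at 72 hr, none at 96 hr, and the other 2 on the last day. The interpolated courses passed 1.5-fold at a median of 32.3 hr for falls and 63.5 hr for rises, a description with no test. The calls held at all 5 times for 10 members.

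Zfp296 read 1.70, 2.13 and 2.37 at 0 hr, 0.66, 0.71 and 0.66 at 24 hr, 0.37, 0.28 and 0.08 at 48 hr and then -0.15, -0.13 and -0.26 at 120 hr. The groups did not overlap and most of the fall was over by 48 hr. The change of -2.24 at 120 hr (SE 0.12, adjusted p 3.58e-11, limma) was a 4.74-fold fall. Zfp532 read 1.38, 1.09 and 1.61 at 0 hr and -0.84, -0.70 and -0.73 at 120 hr, a change of -2.12 (SE 0.12), with its probe above the negative controls on 9 of 18 arrays.

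Zfp947 was called down at all 5 late times, from 3.77, 3.46 and 3.87 at 0 hr to 2.63, 2.79 and 2.33 at 24 hr and 1.55, 1.79 and 1.73 at 120 hr. On the early arrays this probe changed by -0.44 and a second, dimmer one by 0.10. Zfp704 read 0.60, 0.57 and 0.83 at 0 hr and -0.97, -1.01 and -1.03 by 120 hr, and had reached this level by 72 hr. The changes at 120 hr were -2.01 (SE 0.13) and -1.67 (SE 0.06). At 24 hr the Zfp704 probe changed by -0.98 on the late and -0.19 on the early arrays, a difference of 0.78 (adjusted p 6.88e-06, limma). Zfp219 had its lowest values at 72 hr, with 1.47, 1.36 and 1.41 at 0 hr, -0.63, -0.58 and -0.54 at 72 hr and then -0.15, -0.26 and -0.23 at 120 hr.

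Zfp710 and Zfp281 fell on the late arrays without a call at 24 hr. Zfp710 read 2.13, 1.98 and 2.02 at 0 hr, 1.89 and 1.75 at 24 hr (the spot of the first array was an outlier and left out), 0.82, 0.78 and 0.73 at 48 hr and then 0.30, 0.53 and 0.38 at 120 hr. The drop fell between 24 and 48 hr. Zfp281 read 1.5, 1.46 and 1.91 at 0 hr, 0.80, 0.75 and 0.75 at 48 hr and then -0.10, 0.18 and 0.14 at 120 hr, a steady decline to a change of -1.55 (SE 0.11, adjusted p 4.08e-09, limma). Zfp292, called at all late times, changed by -1.18 at 120 hr.

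The rises were smaller and most came after 48 hr. Zfp319 read -0.13, -0.23 and 0.33 at 0 hr, 0.33, 0.58 and 0.48 at 48 hr and then 0.87, 1.42 and 1.27 at 120 hr, a change of 1.196 (SE 0.18). Zfp185, the actin-associated protein, read 0.71, 0.65 and 1.10 at 0 hr and 1.84, 2.07 and 2.06 at 120 hr, a change of 1.17 (SE 0.13, adjusted p 7.18e-07, limma). For both, arrays at 24 hr still overlapped those at 0 hr. Zfp64 read 1.16, 1.22 and 1.35 at 0 hr, 1.05, 1.187 and 1.11 at 24 hr and then 2.46, 2.32 and 2.37 at 120 hr, so that it was flat for a day and then rose to a change of 1.14 (SE 0.08). Zfp148, a protein that binds GC-rich promoters, and Zfp37 changed by 0.92 and 0.80 at 120 hr.

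Some responses came and went. Zfp706, a small zinc finger protein, read 0.99 and 1.06 at 0 hr, 1.72 and 1.82 at 24 hr, 1.56, 1.69 and 1.73 at 48 hr and then 1.11, 1.07 and 1.01 at 120 hr (1 array missing at 0 and at 24 hr). Its change was 0.75 at 24 hr and 0.04 at 120 hr. The change at 24 hr of the early arrays was -0.01, a difference of -0.76 between the sets (adjusted p 4.64e-05, limma). Zfp202 and Zfp106 rose by 24 hr (0.82 and 0.78) and stayed near that level, at 0.73 and 0.62 at 120 hr. Without background correction Zfp202 changed by 0.26 and Zfp106 by 0.49 at 24 hr, and neither was called.

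**Figure D3:**
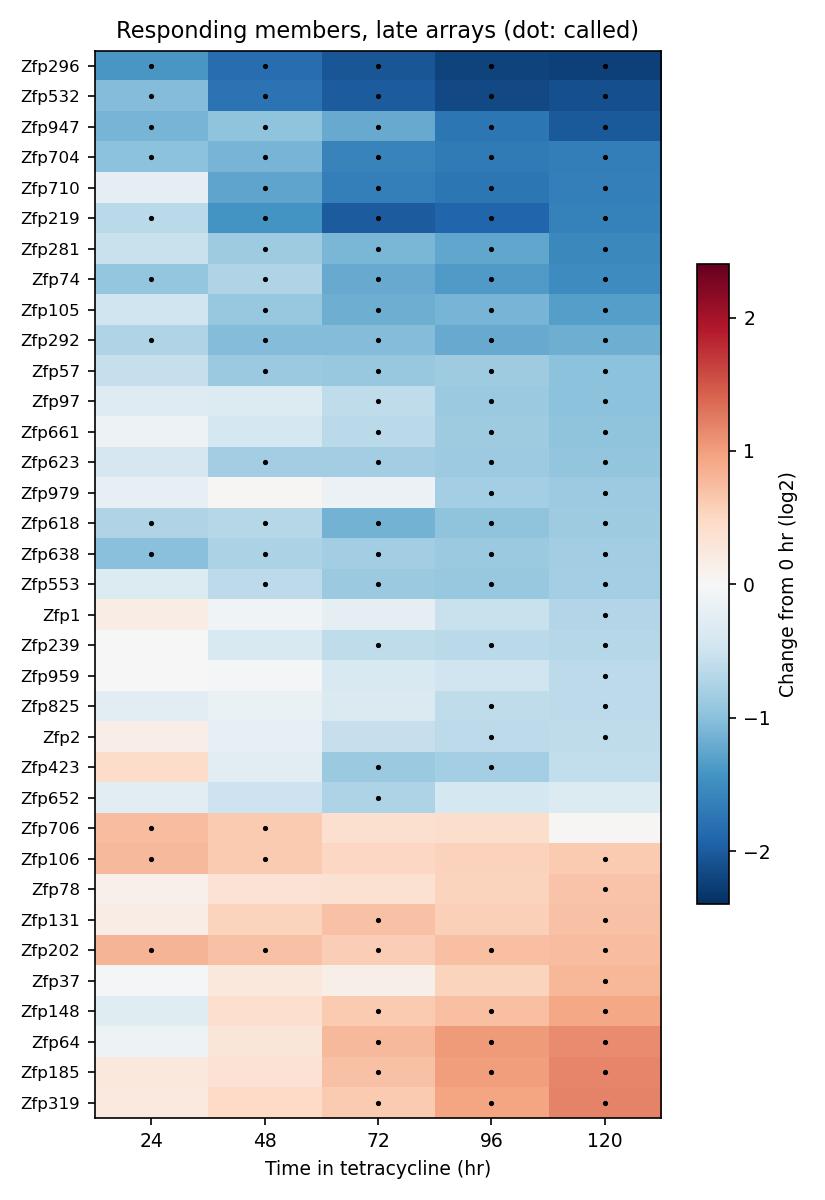
Change from 0 hr (log2, colour scale) at 5 times in tetracycline for the 35 members that responded on the late arrays, in order of the change at 120 hr; a dot marks a call. The upper 25 fell, with Zfp296 and Zfp532 the deepest at 120 hr, and the 10 at the bottom rose at some time, Zfp706 only at 24 and 48 hr.

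The 24 hr time point was measured in both Tet sets, in separate experiments on different designs. Of 123 members on both, 5 fell in both (Zfp74, Zfp219, Zfp292, Zfp296 and Zfp532), which were 45.5% of the early and 55.6% of the late falls, against 38.2% and 29.4% over all genes. Zfp202 alone rose in both, 11.1% of the early and 33.3% of the late rises, against 16.4% and 26.2% over all genes. No member was called in opposite directions, while 34 of 11264 genes were called up early and down late and 12 down early and up late. Across 125 shared probes the 2 changes had r = 0.46 and rho = 0.29, where the points within a set share arrays (the plot of early against late changes).

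A direct test of the difference in the 24 hr change was passed by 23 of the 125 member probes, with 15.2% of all 19180 shared probes and 18.3% of the 11412 with a symbol passing. Zfp281 (0.85 early, -0.53 late, difference 1.38, SE 0.25), Zfp800 (0.99 and -0.20), Zfp715 (0.91 and -0.15) and Zfp64 (0.86 and -0.13) differed upward. These 4 are among the early rises not called after the Cy5 correction. Zfp423, a partner of Smad proteins, fell on the early arrays (-0.84) and changed by 0.43 on the late ones, a difference of -1.27 (SE 0.16). From 48 hr on the late means of Zfp423 lay below that at 0 hr (1.39), with 0.50 at 72 hr and 0.80 at 120 hr. Zfp296 fell in both, further on the early arrays, with a difference of -0.87 (SE 0.18, adjusted p 0.000763, limma).

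Against 120 hr, 6 members fell in both sets, the 5 above and Zfp979, 54.5% of the 11 early falls on the late design, with 50.4% over all genes. Zfp281 and Zfp710 were called up at 24 hr on the early and down at 120 hr on the late arrays. The 2 Zfp710 calls came from different probes, and the probe on both designs changed by -0.04 at 24 hr of the early arrays. Zfp131, a protein with a BTB domain, was called down at 24 hr of the early arrays (-0.60, 1 array missing) and up at 120 hr (0.70). The Cy3 signals of Zfp281 and Zfp710 had not gone up at 24 hr of the early arrays.

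**Figure D4:**
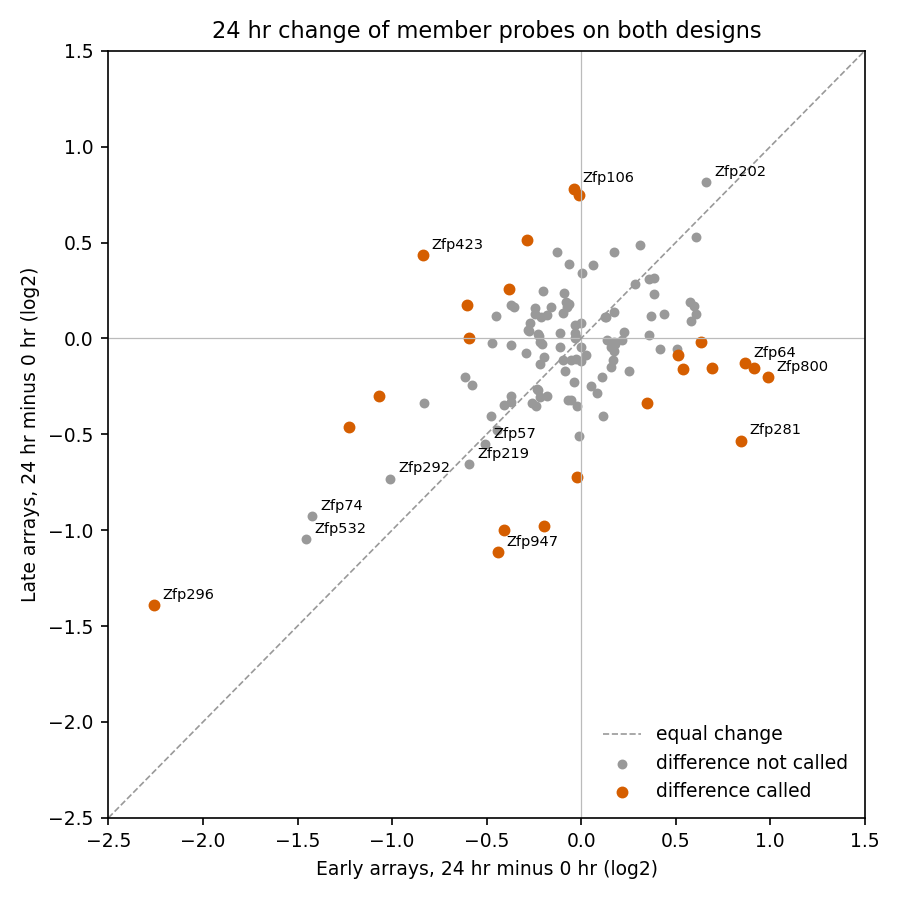
Change from 0 to 24 hr (log2) on the early arrays (x axis) against the late arrays (y axis) for 125 member probes present on both designs; orange marks probes whose 2 changes differed by the test, and the dashed line marks equal change. Zfp296, Zfp532, Zfp74 and Zfp292 lie low on both axes, and Zfp281, Zfp64 and Zfp800 lie right of 0 and below 0.

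Without LIF few members moved. After 3 days, 2 rose and 1 fell, with 1.02% of all genes (0.499% up and 0.52% down) and 2.2% of genes with a symbol called, and 165 of 168 did not pass. Zfp618 read -1.29, -1.29, -0.55 and 0.41 in LIF+ (Nanog episomal, Nanog integrated, MG1.19 and ES 129.3) and 0.54, 0.29, 0.54 and 0.75 in LIF-. It was higher without LIF in each line, most in the Nanog lines (1.83 and 1.58) and least in ES 129.3 (0.34), and its mean change was 1.21 (SE 0.22, adjusted p 0.0358, limma). Zfp608 changed by 0.81 (SE 0.09), with 0.46 to 1.08 by line, and Zfp473, the histone transcript factor, by -0.76 (SE 0.08), with -0.85 to -0.67. The count was 0 without MG1.19 and 4 without ES 129.3, and 0 without background correction. When each of the 4 lines was left out in turn, Zfp618 lost its call in 3 fits, Zfp608 in 2 and Zfp473 in 1.

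None of the 3 examples was called in LIF-. Zfp74 changed by 0.13, -0.29, -0.84 and -0.81 in Nanog episomal, Nanog integrated, MG1.19 and ES 129.3, and Zfp459 by 0.13, 0.19, -0.60 and -0.70. Both parental lines moved further down than the Nanog lines, but limma's test of clones against parental lines was passed by no member and no gene (14 members at an unadjusted p under 0.05). Zfp57 changed by -0.27 (SE 0.09, adjusted p 0.17, limma).

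Retinoic acid changed more members than the loss of LIF. Against LIF+, 10 rose and 9 fell among 168, 11.3% against 5.86% of all genes and 11.1% of the 13932 genes with a symbol. The falls were 5.36% of members, 1.21% of all genes and 2.6% of genes with a symbol. The rises were 5.95% of members, 4.65% of all genes and 8.46% of genes with a symbol. The count ranged from 12 without MG1.19 to 21 without Nanog integrated, was 8 without background correction and 9 with the error variance of the study's methods. Since LIF- and RA are compared with the same LIF+ arrays, their changes are given side by side only.

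The largest rise was that of Zfp703, which read -2.19, -2.24, -2.03 and -0.94 in LIF+ and 1.91, 0.51, 1.81 and 1.40 in RA (same order of lines). All RA arrays lay above all LIF+ arrays. The change of 3.26 (SE 0.29, adjusted p 0.000359, limma) was 9.57-fold, and against LIF- it was 2.93. In LIF- Zfp703 changed by 0.35, -0.02, 0.51 and 0.49 by line.

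Zfp521, a factor of neural commitment, read -1.79, -2.04, -1.42 and -0.64 in LIF+ and 0.06, -1.63, 0.55 and 1.13 in RA, a change of 1.503 (SE 0.22). The Nanog integrated line moved by 0.41 where the other three moved by 1.77 to 1.97. Zfp618 rose to about the same level in RA as in LIF-, with a change of 1.35 (SE 0.22). Its second, dimmer probe changed by 0.81.

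Zfp768 read -1.99, -2.19, -1.59 and -1.05 in LIF+ and -0.33, -1.14, -0.35 and -0.03 in RA, a change of 1.24 (SE 0.10) with each line higher. Zfp672 changed by 1.22 (SE 0.15) against LIF+ and equally against LIF-, and Zfp612 by 0.82. Without background correction Zfp672 changed by 0.37 and was not called, nor were Zfp521 and Zfp612. Zfp90, Zfp319, Zfp326 and Zfp422 rose by 0.63 to 0.69.

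Among the falls on RA, Zfp296 read 2.99, 3.99, 3.29 and 2.58 in LIF+ and 0.89, 3.32, 0.83 and 1.27 in RA. The Nanog integrated line kept most of its level, with a change of -0.68 against -2.11, -2.46 and -1.32 in the others. Pou5f1 kept most of its level in this line too, at 2.77 in LIF+ and 2.42 in RA, while the others read 2.81, 2.14 and 2.16 in LIF+ and 0.65, 0.82 and 0.49 in RA, and this is the line in which Zfp521 rose least. The mean change was -1.64 (SE 0.27, adjusted p 0.00503, limma). Zfp532 was the most even, with changes of -1.23, -1.17, -1.14 and -1.12 by line (mean -1.16, SE 0.06, adjusted p 4.73e-05, limma). Zfp428 and Zfp473 changed by -1.08 and -0.95, and neither was called on the early arrays. Zfp947 changed by -1.18, and its second, dimmer probe by 0.02 (adjusted p 0.87, limma). The call of Zfp947 was lost without MG1.19 and without ES 129.3.

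Of the examples, Zfp459 read 0.78, 1.35, 1.51 and 1.34 in LIF+ and 0.07, 0.06, 0.14 and 0.13 in RA, where the lines read nearly alike. Its change was -1.14 (SE 0.17, adjusted p 0.00312, limma), and -0.27 without background correction, which was not called. The size of this fall thus depended on the background correction. Zfp74 read 1.59, 2.78, 1.97 and 1.78 in LIF+ and 0.58, 2.19, 0.91 and 0.90 in RA, a change of -0.88 (SE 0.17, adjusted p 0.0112, limma) that was not called without MG1.19. Zfp57 changed by -0.31, -0.60, -0.16 and 0.01 by line (mean -0.26, adjusted p 0.078, limma) and was not called.

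Against LIF-, 5 members rose and 7 fell on RA, with 5.68% of all genes (4.05% up and 1.63% down) and 10.4% of genes with a symbol called. Zfp946 had the largest fall and was not called against LIF+. It read -1.02, -0.28, -0.11 and 0.96 in LIF+, 0.58, 0.38, 1.46 and 1.43 in LIF-, and -0.63, -0.35, -0.25 and -0.08 in RA. Its change of -1.29 (SE 0.23) thus stood against a LIF- level above LIF+ in each line. Zfp703, Zfp672, Zfp521, Zfp768 and Zfp90 rose and Zfp459, Zfp532, Zfp947, Zfp428, Zfp979 and Zfp52 fell in this comparison.

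**Figure D5:**
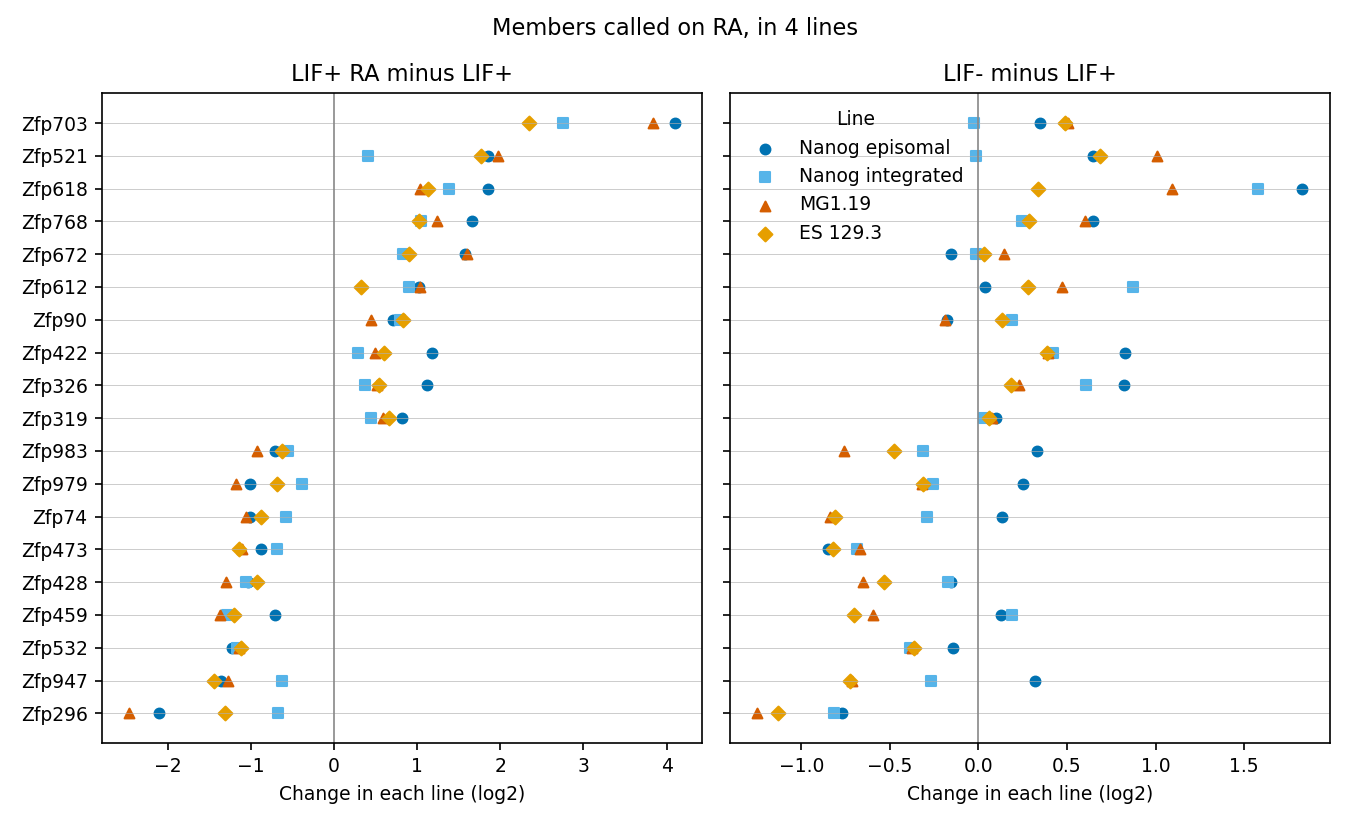
Change against LIF+ (log2) in each of 4 lines for the 19 members called on retinoic acid, with LIF+ RA on the left and LIF- on the right (x axes differ); each symbol is 1 line. On the left every line lies on the called side of 0, from 2.35 to 4.10 for Zfp703, while on the right Zfp74, Zfp459 and Zfp947 have lines on both sides.

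The Tet and the RA arrays share no array, so their calls can be set against each other. All 5 members that fell on RA and were on the late design (Zfp74, Zfp296, Zfp532, Zfp947 and Zfp979) had also fallen at 120 hr of Tet, 100% of the RA falls and 21.7% of the late falls, against 73.1% and 15.1% over all genes. On the early arrays 6 of the 9 RA falls were called down at 24 hr (66.7%, and 46.2% of the early falls on both designs), against 43.6% and 29.0% over all genes. Among the rises, Zfp319 alone rose at 120 hr and on RA, 14.3% of the RA and 11.1% of the late rises, against 56.3% and 31.1% over all genes. Zfp90, Zfp703 and Zfp768 rose at 24 hr of the early arrays and on RA, 30.0% of the RA and 25.0% of the early rises, against 28.9% and 26.8% over all genes. These shares rest on few members and were not tested. Zfp618 fell at 120 hr (-0.85) and rose on RA, but its late probe was above the negative controls on 2 of 18 arrays and a second late probe changed by -0.09. Zfp704 and Zfp710 fell at 120 hr and were not called on RA at their brightest probes (0.21 and -0.09). Their second, dimmer probes changed by 0.79 and -0.97 on RA (adjusted p 0.0423 and 0.0109, limma).

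Zfp genes known from ES cells, embryos or imprints were taken as a list of 18, which includes the examples, adds Zfp322a (no member by its symbol) and was drawn up with results of these data known. Of 15 on the early design 4 rose (Zfp64, Zfp281, Zfp322a and Zfp462) and 5 fell (Zfp74, Zfp131, Zfp296, Zfp459 and Zfp819) at 24 hr, of 11 on the late design 2 rose (Zfp64 and Zfp131) and 4 fell (Zfp57, Zfp74, Zfp281 and Zfp296) at 120 hr, and of 14 none rose and 3 fell on RA. The median changes were -0.05, -0.07 and -0.26, and the shares of genes with a symbol called were 13.4%, 29.3% and 11.1%. With the Cy5 correction the early changes of Zfp64 and Zfp281 turned to -0.36 and -0.50, and Zfp462 was no longer called. Zfp932 was counted as not called through its brightest probes, at -0.05 on the early arrays and -0.57 at 120 hr. Its second, dimmer probes changed by -1.23 at early 24 hr and -0.78 at 120 hr (adjusted p 0.000215 and 7.39e-05, limma). A list of Zfp genes of differentiation held 10 measured members, of which 1 rose (Zfp703) and 2 fell (Zfp292 and Zfp423) at 24 hr, 1 of 9 fell at 120 hr (Zfp292), and 2 rose on RA (Zfp521 and Zfp703). Its medians were -0.08, -0.27 and -0.03. Zfp503 of this list was counted through its brightest probe, which changed by -0.07 on RA. Its second, slightly dimmer probe changed by 1.88 on RA (adjusted p 0.00293, limma), so the 2 probes disagree.

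Of 24 corepressor and partner genes 4 rose and 4 fell at 24 hr of the early arrays, 4 rose and 8 fell at 120 hr and then 1 rose and 1 fell on RA, with none called in LIF-, where 13.4%, 29.3%, 11.1% and 2.2% of genes with a symbol were called. Trim28, which the KRAB domain binds, changed by -1.86 at 120 hr and -0.61 on RA, and Atf7ip, which stabilises the methyltransferase Setdb1, by -2.11 at 120 hr. The chromatin remodeller Atrx, the deacetylase Hdac2 and the heterochromatin protein Cbx3 changed by -1.29, -1.27 and -1.24, while Daxx, Dnmt1, Suv39h1 and Ehmt2 rose by 0.68 to 1.07. Cbx3 and Ehmt2 had been called the other way at 24 hr of the early arrays (0.72 and -0.63). The median over the list at 120 hr was -0.12.

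Of the members with a position, 47 lay in 21 runs of neighbouring members in the genome, the longest of 3. The pairs given here were chosen after their values were seen, and no test was made over all runs. Zfp568, the neighbour of Zfp74 on chromosome 7, changed by -0.10 at 24 hr of the early arrays, where Zfp74 changed by -1.42, and by -0.01 on RA. Zfp747 and Zfp764, next to Zfp768, changed by -0.17 and -0.14 on RA, where Zfp768 rose by 1.24. On the early arrays Zfp747 was called up with it (0.61), with its Cy3 below 0. Zfp692, next to Zfp672, changed by -0.35 on RA. The neighbours Zfp935 and Zfp934 changed alike, by -0.52 and -0.37 at 24 hr of the early arrays and -0.36 and -0.32 on RA, and none of these 4 changes was called.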

How the data were processed

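The 40 arrays had 2 colours, with the sample in Cy3 and Universal Mouse Reference RNA in Cy5 and no dye swap. The authors scanned and extracted them with Agilent Feature Extraction (version 7.5.1 in the file headers) and deposited mean and background signals as intensity values per spot. They also deposited tables of normalized log10 values, which followed log10 of the processed Cy3 signal (r 0.987 to 0.998) and were used only as an alternative. One column of the authors' table also contains coded missing values, was therefore recorded as a score, and had those entries set to missing. Here mean signals were background-corrected (normexp, offset 50), outlier spots left out, and each array normalized by loess to log2(Cy3/Cy5). The brightest probe of each gene was kept. limma 3.58.1 (R 4.3.3) was fitted to all probes of a design, with time as factor (Tet) or with medium and line as factors (Nanog lines), and p-values were adjusted by Benjamini-Hochberg over all gene probes. The late protocol label describes another construct, so the titles and the study were followed, and the parental lines of the study were used where the design text differs, with ES 129.3 taken as the parent of the integrated Nanog line. The labels do not say that replicates came from separate cultures in each case, so p-values measure the spread between these samples.

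The members and gene lists were chosen with earlier results of these data known. Named genes were the 3 examples, the 6 largest rises and 6 largest falls of a comparison among called members that moved the same way in every replicate or line, and list members. Other genes named in counts, overlaps and neighbour pairs were chosen after their values were seen. The fits were tested on simulated data. Alternatives were the Cy5 correction of the study's methods, processed signals, the deposited table, no background correction, Cy3 alone, a filter on dim probes, the methods' error variance, the mean over probes, a replicate block and leaving out arrays or lines. The number of arrays limits the precision. A check of called members asked only for some array of the dimmer group, not for all arrays of both groups. Every called member had such an array that passed the scanner software's flag for signal well above background. This flag was looser than the 95th percentile of the negative control spots, which Zfp57, Zfp532 and Zfp618 passed on 5, 9 and 2 of 18 late arrays.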

Additional observations from a re-analysis of the deposited data

Results flagged for a closer look

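One line stood apart among the named RA and LIF- changes: Zfp521 changed by 0.41 on RA in the Nanog integrated line, where the other lines lay between 1.77 and 1.97. It was the 1 group of 20 groups of 4 lines in which the gap was above Dixon's 95% critical value, which chance passes in about 1 of 20 groups.

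The 24 hr change differed between the early and the late arrays, by limma's test of the difference, for 10 members with the largest changes at the probe used above. The early change minus the late one was 1.38 for Zfp281, 1.1903 for Zfp800, 1.07 for Zfp715, 0.99 for Zfp64, 0.70 for Zfp612, 0.70 for Zfp618, 0.68 for Zfp947 and 0.59 for Zfp638. It was -0.87 for Zfp296 and -0.82 for Zfp106. It was 0.78 for Zfp704 at the dimmer of its early probes. Of members with smaller changes elsewhere, Zfp423 (-1.27), Zfp131 (-0.78) and Zfp706 (-0.76) also passed. The sets differ in design, culture and Cy5 signal, and these cannot be told apart.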

How the results depend on the processing

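The 56 named changes of 31 members gave 1103 values over the alternatives, of which 1012 kept direction and call, 78 lost the call, 5 gained it and 8 reversed. Many of these values came from leaving out an array or line, often an array outside the comparison, which could move the change little. Of the 56 changes, 22 lost the call without background correction and 20 with the methods' error variance. The reversals were all early 24 hr rises: with the Cy5 correction Zfp715 (-0.095), Zfp64 (-0.36) and Zfp281 (-0.50), in the deposited table Zfp64 (-0.60) and Zfp281 (-0.60), and with Cy3 alone Zfp710 (-0.014), Zfp64 (-0.26) and Zfp281 (-0.27). The cause was not tested.

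Counts of called members moved as follows. At early 6 hr, 4 became 1 with the Cy5 correction, 0 in the deposited table, 1 without background correction, 1 with Cy3 alone, 0 with the methods' error variance and 8 with the replicate block. At early 12 hr, 5 became 2 with processed signals, 3 without background correction and 0 with the methods' error variance. At early 24 hr, 26 became 17 with the Cy5 correction, 11 without background correction and 0 with the methods' error variance, where 41 had an unadjusted p under 0.05. The early 24 hr split of 12 up and 14 down was 3 and 14 with the Cy5 correction, 3 and 26 in the deposited table, 3 and 22 with Cy3 alone, and 12 and 21 with processed signals, and the late 120 hr split of 9 and 23 was 12 and 16 in the deposited table. Without background correction the late counts were 6, 8, 12, 15 and 15 from 24 to 120 hr, with 17 at any time, and those of LIF- against LIF+, RA against LIF+ and RA against LIF- were 0, 8 and 2. With the methods' error variance these 3 were 0, 9 and 5. The 23 differences between early and late 24 hr changes became 14 with the Cy5 correction and 9 without background correction.

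Leaving out each array in turn gave 0 calls at early 3 hr, 0 to 8 at 6 hr, 1 to 8 at 12 hr and 13 to 27 at 24 hr, and 12 to 15, 17 to 21, 23 to 26, 27 to 30 and 31 to 34 on the late arrays from 24 to 120 hr (35 to 37 at any time). Leaving out each line gave 0 to 4 in LIF-, 12 to 21 on RA and 6 to 15 for RA against LIF-. Same-numbered Tet replicates had residual correlations of -0.14 to 0.34 (early, mean 0.11) and -0.43 to 0.75 (late, mean 0.15). Differently numbered ones had means of -0.11 and -0.07. These wide ranges do not settle whether the numbers pair samples. Beyond early 6 hr the replicate block moved no count by over 1.5 times. A block for scan date was not run because no scan date was used here. The few arrays per time and dim probes on the late design limit what these counts can show.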
